A study of Mus musculus with 12 samples.

Results

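The comparison covers the second postnatal week of mouse quadriceps, P14 against P5, and its members are the 6 libraries that the labels assign to postnatal day 5 and postnatal day 14, out of 12 in the series. All 1966 mature miRNAs of the count table were included, and no miRNA was chosen by its level or its change. Both groups came from wild-type C57BL/6J mice, with 3 libraries at 5 days and 3 at 14 days after birth, and the remaining libraries were from P1 and P90 quadriceps of the same strain. The series was made to follow miRNAs through the postnatal maturation of skeletal muscle, as a background for miRNAs that depend on MBNL splicing proteins. The methods of the study describe separate mice at each age, the labels do not tie a mouse to a library, and the tests measure the spread between libraries.

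A miRNA hairpin can yield a mature miRNA from each side of its stem, named the 5p and the 3p arm. One of the arms is usually loaded into Argonaute more often than the other, and the seed (bases 2 to 8) guides it to its mRNA targets. Skeletal muscle carries a set of muscle miRNAs that promote differentiation or mark a fibre type, and the second week after birth is a time when perinatal programs give way to those of mature fibres. Many miRNAs of growing tissue come from the imprinted Dlk1-Dio3 region on the distal part of chromosome 12, where many hairpins lie in maternally expressed noncoding transcripts.

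The first set of sequences shows families in which members with the same seed changed in opposite directions, so that bases outside the seed are where they differ. Mature sequences are from RefSeq (GRCm38.p6) in RNA letters with the seed in capitals, and 688 of the 809 miRNAs tested had one there. Hairpin coordinates given with the values are on GRCm38. Let-7a-5p also has a hairpin at chr9:41536716-41536811, in an intron of the lncRNA Mir100hg, that is not in its line below. The members that rose at P14 come first in each family.
let-7a-5p: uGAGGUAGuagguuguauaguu (chr13:48538239-48538260, - strand)
let-7b-5p: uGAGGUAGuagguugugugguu (chr15:85707325-85707346, + strand)
let-7c-5p: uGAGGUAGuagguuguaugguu (chr16:77599672-77599693, + strand, and chr15:85706616-85706637, + strand)
let-7d-5p: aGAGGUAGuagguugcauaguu (chr13:48536078-48536099, - strand)
let-7e-5p: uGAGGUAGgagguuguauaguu (chr17:17830366-17830387, + strand)
let-7f-5p: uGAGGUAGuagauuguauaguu (chr13:48537889-48537910, - strand, and chrX:151912353-151912374, + strand)
let-7g-5p: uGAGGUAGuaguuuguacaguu (chr9:106178846-106178867, + strand)
let-7i-5p: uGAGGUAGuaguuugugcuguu (chr10:122985698-122985719, - strand)
miR-98-5p: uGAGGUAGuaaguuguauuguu (chrX:151913229-151913250, + strand)
miR-26a-5p: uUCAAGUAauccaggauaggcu (chr9:119031811-119031832, + strand, and chr10:126995543-126995564, + strand)
miR-26b-5p: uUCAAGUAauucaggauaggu (chr1:74394324-74394344, + strand)
miR-30a-5p: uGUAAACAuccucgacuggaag (chr1:23272274-23272295, + strand)
miR-30c-5p: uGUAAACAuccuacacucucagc (chr4:120769584-120769606, - strand, and chr1:23291714-23291736, + strand)
miR-30e-5p: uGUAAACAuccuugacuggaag (chr4:120772660-120772681, - strand)
Counted from the 5′ end, let-7f-5p differed from let-7a-5p by the substitution G12A, let-7c-5p by A19G and let-7b-5p by A17G and A19G. Likewise, miR-30e-5p differed from miR-30a-5p by C13U.

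The second set shows both arms of hairpins with the largest called shifts of arm ratio between P5 and P14 among those with a mean of at least 10 CPM in each arm. In the first 4 pairs the 3p arm fell while the 5p arm had no call for a fall, and in the last 5 the ratio shifted the other way.
miR-542-5p: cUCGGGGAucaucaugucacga (chrX:53049453-53049474, - strand)
miR-542-3p: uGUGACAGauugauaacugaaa (chrX:53049415-53049436, - strand)
miR-369-5p: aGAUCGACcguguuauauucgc (chr12:109743431-109743452, + strand)
miR-369-3p: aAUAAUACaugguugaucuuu (chr12:109743466-109743486, + strand)
miR-154-5p: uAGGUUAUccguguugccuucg (chr12:109738438-109738459, + strand)
miR-154-3p: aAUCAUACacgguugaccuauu (chr12:109738474-109738495, + strand)
miR-543-5p: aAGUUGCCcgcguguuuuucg (chr12:109717269-109717289, + strand)
miR-543-3p: aAACAUUCgcggugcacuucuu (chr12:109717304-109717325, + strand)
miR-340-5p: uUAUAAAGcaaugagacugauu (chr11:50069720-50069741, + strand)
miR-340-3p: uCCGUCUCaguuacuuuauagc (chr11:50069762-50069783, + strand)
miR-503-5p: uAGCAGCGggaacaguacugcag (chrX:53054027-53054049, - strand)
miR-503-3p: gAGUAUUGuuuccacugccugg (chrX:53053987-53054008, - strand)
miR-450b-5p: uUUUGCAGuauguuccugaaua (chrX:53048044-53048065, - strand)
miR-450b-3p: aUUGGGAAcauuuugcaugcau (chrX:53048008-53048029, - strand)
miR-410-5p: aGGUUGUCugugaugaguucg (chr12:109743729-109743749, + strand)
miR-410-3p: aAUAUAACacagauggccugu (chr12:109743764-109743784, + strand)
miR-673-5p: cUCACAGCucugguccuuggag (chr12:109572004-109572025, + strand)
miR-673-3p: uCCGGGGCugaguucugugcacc (chr12:109572044-109572066, + strand)

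The third set gives further miRNAs that fell (first 7) and rose (last 5) with large changes.
miR-485-3p: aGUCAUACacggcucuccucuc (chr12:109734946-109734967, + strand)
miR-495-3p: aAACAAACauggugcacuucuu (chr12:109718795-109718816, + strand)
miR-376a-3p: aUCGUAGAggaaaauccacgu (chr12:109723824-109723844, + strand)
miR-376b-3p: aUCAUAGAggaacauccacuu (chr12:109723508-109723528, + strand)
miR-380-3p: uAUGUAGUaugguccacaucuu (chr12:109711842-109711863, + strand)
miR-499-5p: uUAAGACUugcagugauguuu (chr2:155622893-155622913, + strand)
miR-335-5p: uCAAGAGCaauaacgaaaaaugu (chr6:30741314-30741336, + strand)
miR-22-3p: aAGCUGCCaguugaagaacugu (chr11:75463772-75463793, + strand)
miR-22-5p: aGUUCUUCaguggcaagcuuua (chr11:75463734-75463755, + strand)
miR-365-3p: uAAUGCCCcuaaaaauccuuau (chr16:13453895-13453916, + strand, and chr11:79726467-79726488, + strand)
miR-149-5p: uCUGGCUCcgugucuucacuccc (chr1:92850381-92850403, + strand)
miR-29a-3p: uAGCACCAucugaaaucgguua (chr6:31062673-31062694, - strand)

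Quadriceps identity was checked with defining miRNAs. The summed level of 6 muscle miRNAs was 267967, 274718 and 245257 normalized CPM (counts scaled to library size by TMM) at P5 and 189677, 138976 and 213838 at P14, while the heart miRNA miR-208a-3p had at most 14 counts in any P5 library and 0 at P14. Library totals were 30648679 to 33771032 counts at P5 and 20363495 to 24046074 at P14, and 734 to 754 and 685 to 743 miRNAs had at least 10 counts. A total of 27 pairs of miRNAs from overlapping hairpins had counts within 2% of each other in all 12 libraries, and 12 of these pairs had the same counts throughout. Reads from such partners, the miR-486a and miR-486b arms among them, could not be told apart. P14 replicate 2 stood apart from the others of its age, as described next, and results that rest on it are also given without it.

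The P14 libraries were less dominated by miR-1a-3p, the most abundant muscle miRNA. It held 30.2, 30.8 and 28.8% of the counts in the 3 P5 libraries and 22.7, 16.0 and 22.8% in the 3 P14 libraries, without overlap. The mean share was 29.9% ± 1.04 at P5 and 20.5% ± 3.87 at P14 (SD, n = 3 at each age, exact permutation test, 2-sided p = 0.1, the smallest that 3 against 3 allows). The share of the 10 most abundant miRNAs went from 60.8% ± 1.09 to 54.7% ± 3.59 (exact permutation p = 0.1). Without the later-named miRNAs of overlapping hairpins, miR-1b-5p among them, this share was 57.6, 58.4 and 56.5% at P5. At P14 it was then 55.3, 51.9 and 56.7%, so the ages overlapped (means 57.5% ± 0.96 and 54.6% ± 2.50). The effective number of miRNAs, an index of evenness that counts equally abundant miRNAs, was 8.33, 8.05 and 9.07 at P5 and 13.5, 21.8 and 13.3 at P14. P14 replicate 2 was the most even library of both ages, and the other 2 P14 libraries also lay above all P5 libraries.

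Of the 809 miRNAs tested, 359 (44.4%) differed between P5 and P14 at a Benjamini-Hochberg adjusted P value (Padj) under 0.05 in edgeR's quasi-likelihood test, 146 of them higher (18.0%) and 213 lower (26.3%) at P14. Of these, 233 changed at least 2-fold, 74 upwards and 159 downwards. The P5 and P14 libraries did not overlap for 440 of the 809 miRNAs (54.4%). Of the 203 miRNAs averaging 100 normalized CPM or more, 64 rose and 83 fell. The majority of falls depended on the scaling, as library totals alone gave 183 up and 160 down and upper-quartile factors 207 up and 165 down. These scalings moved the median log2 fold change (log2FC) of all miRNAs from -0.07 to 0.21 and 0.22. Leaving out all miRNAs under 10 CPM gave 114 up and 118 down.

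**Figure D1:**
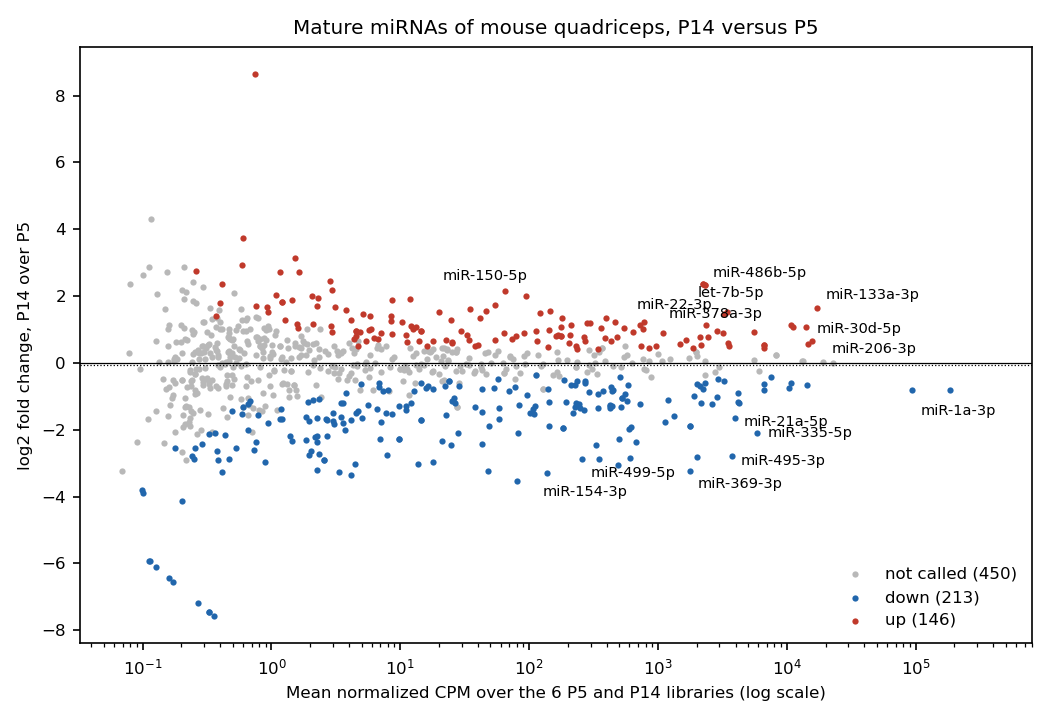
Each point is 1 of 809 mature miRNAs, placed by its mean normalized CPM over the 6 libraries (log scale) and its log2 fold change, P14 over P5, with the 146 that rose in red, the 213 that fell in blue and the rest in grey. The dotted line is the median of all miRNAs, and the deepest falls above 100 CPM (miR-369-3p, miR-154-3p) exceed the highest rises (miR-486b-5p) in size, while fitted values beyond 5 log2 units belong to miRNAs near the count floor.

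The muscle miRNAs moved apart. MiR-1a-3p and miR-133a-3p, which are encoded together on the same primary transcripts and act on differentiation and proliferation of muscle cells, changed in opposite directions. MiR-1a-3p stood at 236995, 249492 and 217754 normalized CPM in the P5 libraries and at 150275, 93043 and 162278 in the P14 libraries (log2FC -0.80, SE 0.22, edgeR Padj = 0.0073). The groups did not overlap, and P14 replicate 2 was the lowest, and without it the log2FC was -0.59. MiR-1b-5p, the second entry by abundance, comes from a hairpin on the opposite strand of miR-1a and went from 119521, 125140.0 and 110698 to 75659.9, 46974 and 81782 CPM (log2FC -0.80, Padj = 0.0069), about the same fall, and cannot be separated from it. MiR-133a-3p rose from 8787, 7106 and 8966 to 21486, 26417 and 30117 CPM (log2FC 1.65, SE 0.19, edgeR Padj = 4e-06), with every P14 library at more than 2 times every P5 library. With library totals alone the values were -0.55 for miR-1a-3p and 1.92 for miR-133a-3p, and both kept their call. MiR-1a-3p, miR-1b-5p and miR-133a-3p had no RefSeq sequence, so their changes could not be retested with the GC trend removed. The minor arm miR-133a-5p rose too (log2FC 0.45, Padj = 0.032).

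MiR-206-3p, a miRNA of skeletal muscle that promotes myoblast differentiation and is known from regenerating fibres, did not pass the threshold. Its levels of 21640.5, 17377 and 17900.4 CPM at P5 and 17694, 19322 and 21218 at P14 overlapped (log2FC 0.03, Padj = 0.87). Its cluster partner miR-133b-3p was at 207, 145 and 191 and 147, 146 and 157 CPM (log2FC -0.27, Padj = 0.31), also with overlap. By contrast, the miRNAs of slow myosin genes fell. MiR-499-5p, from an intron of Myh7b (chr2:155622880-155622958), dropped from 335, 592 and 440.4 CPM to 73.0, 46.9 and 68.3 (log2FC -2.86, SE 0.43, edgeR Padj = 5.9e-05), and miR-208b-3p, from an intron of Myh7, dropped from 2.56, 5.83 and 5.42 to 2.12, 1.06 and 0.944 CPM (log2FC -1.74, Padj = 0.0015). After removal of the GC trend of each library, miR-499-5p was -1.51 (edgeR Padj = 0.0026), while miR-208b-3p was -0.14 and lost its call (edgeR Padj = 0.79).

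The steepest rise among abundant miRNAs was that of miR-486, a muscle-enriched miRNA from an intron of Ank1 (chr8:23142555-23142682). Counts assigned to miR-486a-5p went from 979, 554 and 669.7 CPM in the P5 libraries to 3711, 3941 and 3614 in the P14 libraries (log2FC 2.35, SE 0.19, edgeR Padj = 1.6e-07). The 3 P14 libraries were nearly alike and the P5 libraries more spread, with no overlap, as the selection of these miRNAs required. MiR-486a-3p, miR-486b-5p and miR-486b-3p gave the same picture (log2FC 2.33 to 2.35), but they overlap on both strands of one locus and do not add evidence. The miR-486 entries had no RefSeq sequence either, so no GC-corrected value could be given. Of the 19 muscle miRNAs tested, 6 rose, 6 fell and 7 did not pass (median -0.04, 0.26 with library totals alone, beside -0.07 and 0.21 over all miRNAs, of which 18.0% rose and 26.3% fell), and 4 of the 6 that rose were these miR-486 entries.

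**Figure D2:**
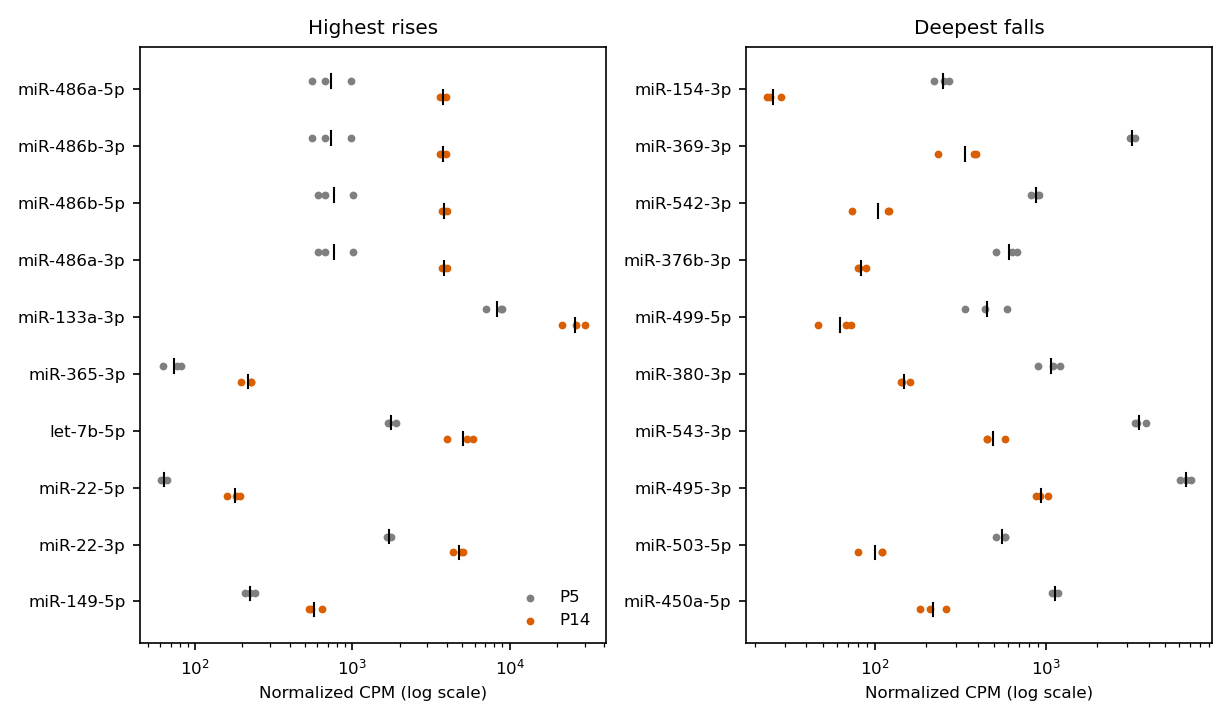
Normalized CPM (log scale) of the 10 largest rises and 10 largest falls among miRNAs with at least 100 CPM, called and without overlap; grey points are the 3 P5 libraries, orange points the 3 P14 libraries and black bars their means. In every line the ages are separated, as the selection required, with log2FC from 1.35 to 2.35 for the rises and from -2.37 to -3.29 for the falls.

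The other miRNAs with the highest rises came from several families. MiR-22-3p, a muscle-enriched miRNA that restrains myoblast proliferation (chr11:75463716-75463810, exon of the lncRNA Mir22hg and of Tlcd2), rose from 1673, 1717 and 1752 to 5029.6, 4376 and 4892 CPM (log2FC 1.48, SE 0.13, edgeR Padj = 3e-07). Its other arm rose by nearly the same factor, from 60.8, 66.4 and 62.9 to 183, 160.5 and 194 CPM (log2FC 1.50, SE 0.14, edgeR Padj = 7.8e-07) and the 5p to 3p ratio differed by 0.02 log2 units (SE 0.11, limma Padj = 0.9). MiR-365-3p, known from the brown fat lineage, rose from 80.9, 62.2 and 76.6 to 225, 225 and 196 CPM (log2FC 1.56, SE 0.14, edgeR Padj = 5.9e-07). MiR-149-5p, from an intron of Gpc1 (chr1:92850378-92850443), rose from 241, 224 and 208 to 526, 639.7 and 547 CPM (log2FC 1.35, SE 0.13, edgeR Padj = 1.1e-06). None of these groups overlapped, which their selection required.

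The counts of each further list stand beside 18.0% higher and 26.3% lower over all 809 miRNAs. In the list of miR-193, miR-365 and miR-455, which holds miRNAs of the brown fat lineage, 6 rose, 1 fell and 2 did not pass of 9 tested (median 1.61). MiR-193b-3p, which neighbours miR-365 in one of its clusters, rose from 4.68, 3.26 and 7.14 to 14.0, 24.4 and 18.2 CPM (log2FC 1.91, Padj = 5.4e-05), and miR-193a-5p from 17.9, 15.0 and 18.3 to 46.9, 56.1 and 53.8 (log2FC 1.61, Padj = 1.3e-06). The member that fell was miR-455-5p at low level (log2FC -1.50, Padj = 0.00032).

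All 5 members of the miR-378 family rose (median 1.33), a family encoded in an intron of the metabolic coactivator gene Ppargc1b and at further loci and known for control of mitochondrial metabolism. MiR-378a-3p was at 7459, 7197 and 6937 CPM in the P5 libraries and 15999.5, 15478 and 14479.9 in the P14 libraries (log2FC 1.09, SE 0.13, edgeR Padj = 5.9e-06). The rarer miR-378d went from 32.2, 41.9 and 39.1 to 147, 151 and 158 CPM (log2FC 2.01, Padj = 1.6e-07). These members share much of their sequence, so reads could be split between them, and their calls are not separate evidence. The median stayed between 1.26 and 1.61 over the scalings.

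In the miR-29 family, whose members repress collagen and other matrix genes, 4 rose, 0 fell and 3 did not pass of 7 tested (median 1.09). MiR-29a-3p rose from 102, 126 and 111 to 232, 218 and 270.2 CPM (log2FC 1.09, SE 0.20, edgeR Padj = 0.00039). The others with its seed, miR-29b-3p (3.12, 3.02 and 2.82 against 3.00, 3.15 and 4.44 CPM, Padj = 0.4) and miR-29c-3p (7.60 to 9.28 against 6.95 to 10.2 CPM, Padj = 0.65), overlapped between the ages at far lower levels. Summed over the seed, the family rose with a log2FC of 1.02 (edgeR Padj = 0.00056), nearly all of it miR-29a-3p. After removal of the GC trend, miR-29b-3p (1.40, edgeR Padj = 1.5e-05) and miR-29c-3p (1.10, edgeR Padj = 5.7e-05) passed as well, and the median of the list was 1.60.

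Of 12 miR-30 miRNAs, a family abundant in differentiated muscle, 9 rose, 2 fell and 1 did not pass (median 0.92). MiR-30d-5p went from 8912, 9586 and 8796 to 18999, 20787 and 18025 CPM (log2FC 1.08, SE 0.12, edgeR Padj = 2.9e-06) and miR-30c-5p from 1642, 1360.2 and 1414 to 2748, 3482 and 3426 (log2FC 1.13, Padj = 2.3e-05). MiR-30e-5p went the other way, from 3761, 3897 and 3894 to 2882, 2157 and 2951 CPM (log2FC -0.53, Padj = 0.017), although it differs from miR-30a-5p (log2FC 0.45, Padj = 0.019) by the single base shown above. The fall of miR-30e-5p was lost with library totals alone (-0.27), without P14 replicate 2 (-0.40) and with the GC trend removed (-0.04), each value on the same side of 0. The rise of miR-30a-5p lost its call with no filter on low counts (0.34) and without P5 replicate 3 (0.35), P14 replicate 1 (0.40) or P14 replicate 3 (0.42). With the GC trend removed it was 0.59 and kept its call.

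The let-7 family, which promotes differentiation and represses growth regulators, split by member. Of the 9 miRNAs with the let-7 seed GAGGUAG, 5 rose and 4 fell. Let-7b-5p went from 1886, 1694 and 1711 CPM at P5 to 3992, 5837 and 5400.4 at P14 (log2FC 1.53, SE 0.16, edgeR Padj = 2.7e-06), let-7c-5p from 7065, 6455 and 6865 to 12191, 15988 and 16654 (log2FC 1.14, SE 0.16, edgeR Padj = 2.7e-05) and let-7a-5p from 12765, 12015 and 11810.3 to 16243, 19457 and 21459 (log2FC 0.64, SE 0.13, edgeR Padj = 0.00071). Let-7d-5p (log2FC 0.61) and let-7e-5p (0.51) also rose.

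Let-7f-5p, one base away from let-7a-5p, was the most abundant let-7 at P5 and fell from 17631, 17595 and 17422 to 11585, 8893 and 12776 CPM (log2FC -0.66, SE 0.14, edgeR Padj = 0.0012). Let-7g-5p (log2FC -0.41, Padj = 0.012), let-7i-5p (-0.63, Padj = 0.0014) and miR-98-5p (-1.29, Padj = 1.3e-05) fell as well. At P14, let-7a-5p exceeded let-7f-5p in each library, whereas at P5 the order was the reverse in each library. The summed level of the seed was 59181 ± 1128 CPM at P5 and 67443 ± 6905 at P14 (mean and SD of 3 libraries each). The log2FC of 0.19 missed the threshold (edgeR Padj = 0.14). Over all 22 let-7 arms, 8 rose, 9 fell and 5 did not pass, and the median of 0.05 turned to -0.01 with RLE factors and to -0.26 without P14 replicate 2. The falling members have less GC than let-7b-5p (45.45%). The median GC content was 40.91% for the 5 that rose and 34.09% for the 4 that fell, with some values shared between them. Let-7i-5p fell with 40.91%, the same as the rising let-7c-5p, let-7d-5p and let-7e-5p. Let-7g-5p fell with 36.36%, the same as the rising let-7a-5p. With the GC trend of each library removed let-7f-5p was 0.90 (edgeR Padj = 4.1e-06) and let-7g-5p 0.56 (edgeR Padj = 0.00019). Let-7i-5p (-0.13) and miR-98-5p (0.27) then had no call. In that setting 11 of the 22 arms rose and 0 fell.

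The miR-26 family, which favours myogenic differentiation, showed the same division. MiR-26a-5p rose from 11670.5, 11028 and 12604 to 17435, 16547 and 18613 CPM (log2FC 0.58, SE 0.11, edgeR Padj = 0.0006), and miR-26b-5p, with the same seed and from an intron of Ctdsp1 (chr1:74394310-74394394), fell from 2464, 2369.6 and 2734 to 1419, 932 and 1485 (log2FC -0.98, SE 0.16, edgeR Padj = 0.00012). The GC-corrected value of miR-26b-5p was 0.36 (edgeR Padj = 0.015), that is, in the opposite direction. In all, 8 seeds of 71 with at least 2 tested miRNAs held members that rose and members that fell, and in each of the 8 the members that rose had the higher median GC content.

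When counts were summed by seed, 239 of 585 seeds differed (40.9%), 98 upwards (16.8%) and 141 downwards (24.1%), and 514 of the 585 had a single tested miRNA. Only miRNAs with a RefSeq sequence entered these sums, so the miR-486 entries, miR-133a-3p, miR-1a-3p, miR-30d-5p and miR-378a-3p were not ranked. Among the seeds summed, the leading ones above 100 CPM were therefore those of single miRNAs already described. These were miR-365-3p, miR-22-5p, miR-22-3p and miR-149-5p upwards and miR-154-3p, miR-369-3p, miR-542-3p, miR-376b-3p and miR-499-5p downwards. The exception was let-7d-3p, a minor let-7 arm with a seed of its own, which rose with a log2FC of 1.21 (edgeR Padj = 2.6e-05).

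The deepest falls among abundant miRNAs came from the Dlk1-Dio3 region. MiR-154-3p (chr12:109738433-109738498, intron of the lncRNA Mirg) dropped from 221, 274 and 255 CPM in the P5 libraries to 24.7, 23.6 and 28.4 in the P14 libraries (log2FC -3.29, SE 0.16, edgeR Padj = 1.7e-09). MiR-369-3p (chr12:109743418-109743496, exon of Mirg) dropped from 3103, 3322 and 3155 to 390.3, 234 and 383 (log2FC -3.25, SE 0.23, edgeR Padj = 4e-08), and miR-495-3p (chr12:109718754-109718816), the most abundant of this group, from 6551, 7034 and 6072 to 921, 876 and 1028 (log2FC -2.80, SE 0.18, edgeR Padj = 2.2e-08). The selection required no overlap, and in each case the highest P14 library was below the lowest P5 library by a wide margin. MiR-543-3p (-2.83), miR-376b-3p (-2.86) and miR-380-3p (-2.84) changed by similar log2FC. Removing the GC trend moved the AU-rich miR-369-3p to -0.36 (edgeR Padj = 0.042), while miR-543-3p gave -2.68, miR-154-3p -2.31 and miR-495-3p -1.82.

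Other miRNAs of the region changed less or not detectably. MiR-127-3p, an Rtl1 antisense miRNA and one of the 10 most abundant miRNAs of these libraries, was at 13061, 12999 and 12845 CPM at P5 and 13104, 15325 and 12326 at P14, with overlap (log2FC 0.07, Padj = 0.79). MiR-411-5p went from 11924, 14007 and 12924 to 8594, 7966 and 9200.3 CPM (log2FC -0.59, Padj = 0.01) and miR-379-5p from 12521, 13504 and 12995 to 8359.9, 6292 and 8466 (log2FC -0.76, Padj = 0.0022). MiR-370-3p, a GC-rich member, fell from 1771, 1863 and 1641 to 495, 535 and 513 CPM (log2FC -1.77, SE 0.14, edgeR Padj = 1.9e-07), and with the GC trend removed it stood at -1.60.

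By list, 2 rose, 39 fell and 34 did not pass of the 75 miRNAs tested from the miR-379 to miR-410 cluster (median -0.73). In the 12 Rtl1 antisense miRNAs, 0 rose, 8 fell and 4 did not pass (median -0.71), and in the 18 others of the region, 2 rose, 12 fell and 4 did not pass (median -0.81). Facing arms of miR-3071 and miR-136 in the Rtl1 list, and of miR-299a and miR-299b in the cluster, had counts within 2% of each other. Their calls are not separate evidence. The medians remained negative under every scaling tried, at -0.46 for the cluster with library totals alone, but among the named members miR-411-5p, miR-433-3p, miR-434-5p and miR-540-3p lost their call there.

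The falls were also counted by arm. Of 53 3p arms tested from the Dlk1-Dio3 region, 38 fell and 1 rose (median -1.06), and of 52 5p arms 21 fell and 3 rose (median -0.43). Over all 398 3p arms tested, 112 fell and 63 rose (median -0.07), and over the 363 5p arms 92 fell and 72 rose (median -0.09). The GC content of the region's arms differed, with a median of 46.4% for 3p and 50.0% for 5p. With the GC trend removed the medians were -0.75 for 50 3p arms and -0.38 for 51 5p arms.

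The 5p and 3p arms are cut from the same hairpin, and their ratio does not depend on library scaling, so it was compared directly. Of 250 hairpins with both arms tested, 97 (38.8%) differed in the log2 ratio of 5p to 3p between P5 and P14 in a limma test, 55 towards 5p (22.0%) and 42 towards 3p (16.8%). In the Dlk1-Dio3 region 23 of 52 hairpins shifted towards 5p and 8 towards 3p, and elsewhere 32 and 34 of 198. For 63 of the 97 hairpins only 1 of the arms had passed the test on its own. Facing hairpins such as miR-299a and miR-299b mirror each other, and with all overlapping hairpins left out 80 of 224 hairpins differed. With the GC trend removed, 62 of 201 hairpins with 2 known sequences differed, 38 towards 5p and 24 towards 3p.

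Among hairpins with a mean of at least 10 CPM in each arm, the largest shift was that of miR-542, of the X-linked miR-322 to miR-450 cluster. Its 5p arm had 0.0375, 0.0328 and 0.0362 times the reads of its 3p arm in the P5 libraries and 0.356, 0.614 and 0.373 times in the P14 libraries (change of 3.61 log2 units, SE 0.23, limma Padj = 4.9e-06). Here the 3p arm dropped from 917, 887 and 824 to 119, 74.3 and 121 CPM, whereas the 5p arm rose from 34.4, 29.1 and 29.8 to 42.4, 45.6 and 45.1 CPM (log2FC 0.51, Padj = 0.04). The shift remained at 1.83 with the GC trend removed.

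In miR-485 (chr12:109734902-109734974, exon of Mirg), the dominant arm changed. The 5p to 3p ratio was 0.435, 0.419 and 0.433 at P5 and 4.10, 3.58 and 3.25 at P14 (change of 3.08 log2 units, SE 0.13, limma Padj = 3.3e-07), since miR-485-5p rose from 362, 388 and 320.0 to 542, 703 and 592 CPM and miR-485-3p fell from 833, 926 and 738 to 132, 196 and 182. Both changes passed the test (log2FC 0.78, Padj = 0.0025 and -2.29, Padj = 2.5e-07), and the groups did not overlap in either arm. A change of the more abundant arm was seen in 14 hairpins that passed the test, among them miR-369, miR-154, miR-376b, miR-409, miR-106b and miR-673.

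MiR-369, miR-154 and miR-543 had falling 3p arms beside 5p arms that did not pass the threshold. The ratio of miR-369 was 0.123, 0.121 and 0.116 at P5 and 0.958, 1.95 and 0.958 at P14 (change of 3.34 log2 units, SE 0.27, limma Padj = 1.4e-05), that of miR-154 0.222, 0.124 and 0.159 and 1.37, 1.45 and 1.12 (change of 2.99 log2 units, SE 0.30, limma Padj = 5.1e-05), and that of miR-543 0.0164, 0.0182 and 0.0188 and 0.142, 0.123 and 0.114 (change of 2.82 log2 units, SE 0.14, limma Padj = 6e-07). P14 replicate 2 had the highest miR-369 ratio, and the other 2 libraries were also above all P5 libraries. The GC-corrected shifts were 0.55, 1.92 and 2.51, and all 3 kept their call. The arms of miR-369 differ most in GC content of these pairs.

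With the same limit of 10 CPM, shifts towards the 3p arm were led by miR-340, from an intron of Rnf130, whose ratio was 5.38, 5.27 and 5.71 at P5 and 1.57, 0.900 and 1.13 at P14 (change of -2.22 log2 units, SE 0.20, limma Padj = 2.8e-05). With the GC trend removed it was -0.42 and no longer passed (limma Padj = 0.066). MiR-503 had log2 ratios of 3.29, 3.58 and 3.45 at P5 and 1.50, 0.84 and 1.49 at P14 (change of -2.16 log2 units, SE 0.26, limma Padj = 0.00016), and the GC-corrected shift was -2.29. MiR-450b (change -2.04, limma Padj = 6.6e-06) and miR-673 (-1.97, limma Padj = 9.3e-05) followed. The value for miR-410 (-1.98, limma Padj = 0.026) lost its call when any P5 library, P14 replicate 1 or P14 replicate 2 was left out.

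**Figure D3:**
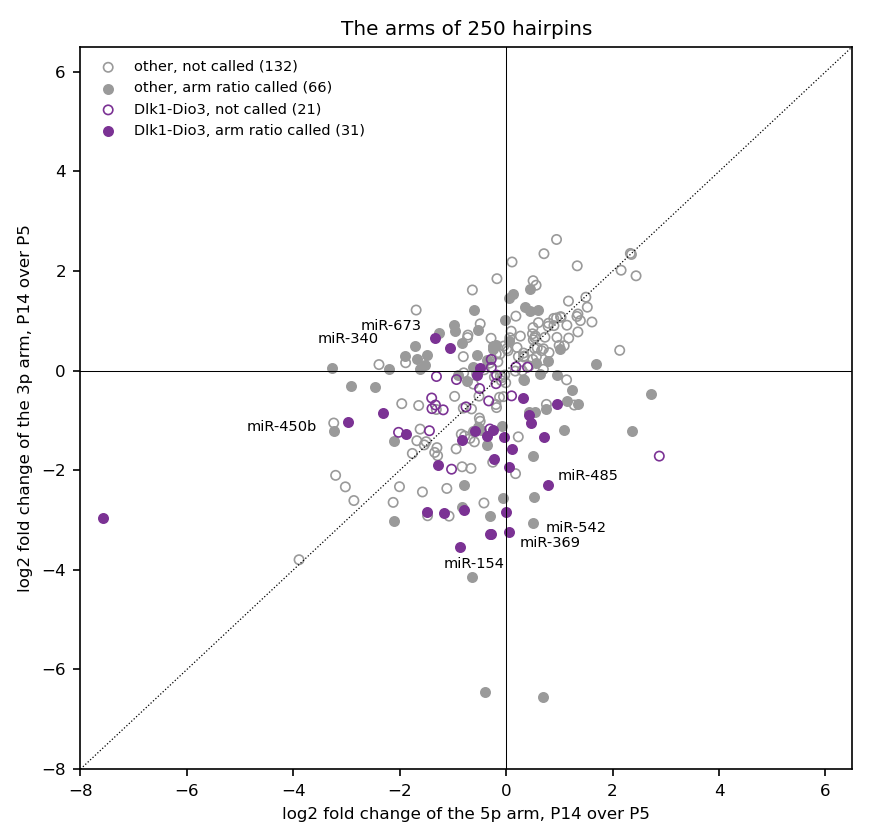
Log2 fold change of the 5p arm (horizontal axis) and of the 3p arm (vertical axis), P14 over P5, for 250 hairpins, with 52 of the Dlk1-Dio3 region in purple and filled points where the arm ratio passed the limma test. Points below the dotted diagonal shifted towards 5p, as 23 filled purple points did against 8 above it.

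Arms parted outside Dlk1-Dio3 as well. Over the whole table of 250 hairpins, 76 had both arms called, and in 14 of these the arms went in opposite directions. These 14 include Dlk1-Dio3 hairpins such as miR-485 and miR-673, and miR-126a and miR-126b, which mirror each other. In 173 of the 250 the arms changed in the same direction, called or not. MiR-30d-5p rose while miR-30d-3p fell at low level (log2FC 1.08 and -1.20), and so did miR-15b-5p and miR-15b-3p (0.75 and -0.78). The reverse held for miR-106b, a hairpin of a cell cycle cluster in Mcm7, with 5p at -0.95 and 3p at 0.80, and for miR-26b (-0.98 and 0.92). After removal of the GC trend the arms of miR-106b still differed in direction (-0.63 and 0.73), those of miR-26b both rose (0.36 and 0.83) and its ratio no longer passed (-0.46, limma Padj = 0.18), and miR-15b-3p lost its call (0.21). For the endothelial miR-126a (5p -0.84, 3p 0.55) the overlapping miR-126b hairpin carries the same counts.

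The X-linked miR-322 to miR-450 cluster, whose members slow the cell cycle during myogenic differentiation, held mostly miRNAs that fell. Of its 13 miRNAs, 1 rose, 9 fell and 3 did not pass (median -1.20). MiR-503-5p went from 578, 579 and 509.6 to 111, 80.3 and 110.5 CPM (log2FC -2.47, SE 0.16, edgeR Padj = 2.2e-08) and miR-450a-5p from 1176, 1138 and 1082 to 210.3, 184 and 260.4 (log2FC -2.37, SE 0.21, edgeR Padj = 4.1e-07). MiR-322-3p fell less (log2FC -0.77, Padj = 0.00013), and miR-351-5p of the same cluster had 3396, 3051 and 2822 CPM at P5 and 2824, 3126 and 2552 at P14 (log2FC -0.12, Padj = 0.52). The median of the cluster was -0.45 with the GC trend removed, while miR-503-5p stayed at -2.68 and miR-450a-5p was reduced to -0.81.

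Among imprinted miRNAs outside chromosome 12, miR-335-5p, from an intron of Mest (chr6:30741299-30741396), dropped from 8999.7, 10256 and 9322 to 2372, 1583 and 2677 CPM (log2FC -2.11, SE 0.18, edgeR Padj = 3e-07), and its 3p arm fell as well (log2FC -1.42, Padj = 3e-06). With the GC trend removed miR-335-5p was -0.36 (edgeR Padj = 0.021) and miR-335-3p -0.44 (edgeR Padj = 0.052). In the list of miRNAs of Igf2, H19, Mest and Gnas, 0 rose, 3 fell and 7 did not pass of 10. Of 34 miRNAs tested from the rodent-specific cluster in an intron of Sfmbt2, 0 rose, 24 fell and 10 did not pass (median -1.64, -1.51 with 6 members near the count floor set to their bound). These miRNAs are near-identical copies at low level. None of the tested members had a RefSeq sequence, so the list could not be retested with the GC trend removed. Its most abundant member that fell, miR-467e-5p, went from 31.6, 42.6 and 50.2 to 8.70, 8.16 and 5.94 CPM (log2FC -2.45, Padj = 1.1e-05).

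**Figure D4:**
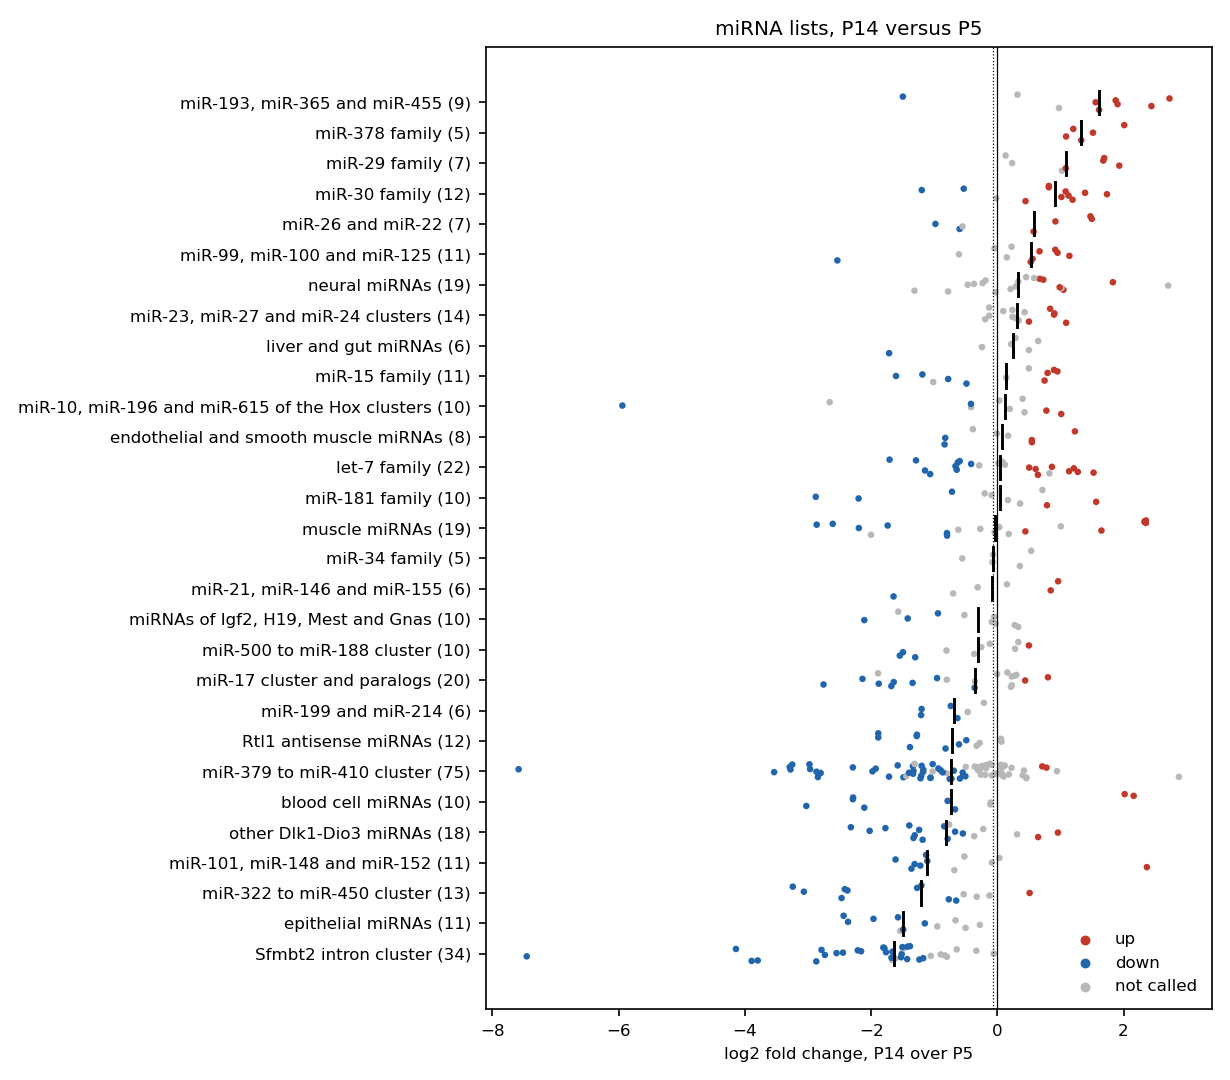
Log2 fold change, P14 over P5, of the members of each list with at least 5 tested miRNAs (number in parentheses), with rises in red, falls in blue and other members in grey. Black bars are list medians, ordered from 1.61 for miR-193, miR-365 and miR-455 to -1.64 for the Sfmbt2 cluster, and the dotted line is the median of all miRNAs, -0.07.

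MiR-21a-5p, a miRNA of growing and fibrotic tissue from an exon of Vmp1 (chr11:86584067-86584158), fell from 5659, 6307 and 6125 to 2240.5, 1502 and 2047 CPM (log2FC -1.64, SE 0.16, edgeR Padj = 9.6e-07), while miR-146a-5p and miR-155-5p, known from inflammation, rose (log2FC 0.85 and 0.96). In the list of those 3 families 2 rose, 1 fell and 3 did not pass of 6, with the shares over all miRNAs at 18.0% up and 26.3% down. MiR-199a-3p, a mesenchymal miRNA, went from 6558, 5177 and 5949 to 2545, 2091 and 3021 CPM (log2FC -1.21, SE 0.17, edgeR Padj = 2.7e-05), and of 6 miR-199 and miR-214 miRNAs 0 rose, 4 fell and 2 did not pass (median -0.68). MiR-199a-3p and miR-199b-3p have the same sequence in mouse, so their calls are not separate. In bulk tissue, fewer cells of a type and less RNA per cell cannot be told apart.

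MiRNAs that mark other cell types moved in part. The summed level of 6 blood cell markers was 516, 448 and 477 CPM at P5 and 438, 365 and 384 at P14, without overlap under TMM scaling. The TMM factors were 1.24 to 1.32 at P5 and 1.41 to 1.73 at P14, and scaled by library totals alone these sums overlapped. In the blood cell list 2 rose, 6 fell and 2 did not pass of 10 (median -0.73, 0.18 with the GC trend removed), where the erythroid miR-144-3p fell (log2FC -3.03, Padj = 9.5e-06), the lymphocyte miR-150-5p rose from 20.2, 25.7 and 25.2 to 109, 109 and 99.8 CPM (log2FC 2.16, SE 0.18, edgeR Padj = 2.1e-07), and the myeloid miR-223-3p did not pass (-0.11, Padj = 0.8). The erythroid miR-451a fell (log2FC -0.67, Padj = 0.018) but lost its call with library totals, with upper-quartile factors, at 10 CPM and without P5 replicate 1, P14 replicate 2 or P14 replicate 3, and gave 0.30 with the GC trend removed. Of 8 endothelial and smooth muscle miRNAs, 3 rose, 2 fell and 3 did not pass. MiR-145a-5p rose from 484, 464 and 456 to 1135, 1177 and 980.3 CPM (log2FC 1.23, SE 0.13, edgeR Padj = 2.2e-06), but its cluster partner miR-143-3p was at 20725, 24731 and 22794 and 24503, 19497 and 23893 (log2FC -0.01, Padj = 0.97), with overlap.

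Epithelial markers, which would come from skin, were at 299.6, 462 and 297 summed CPM at P5 and 88.6, 75.8 and 149.8 at P14. In the epithelial list 0 rose, 6 fell and 5 did not pass of 11 (median -1.49). MiR-203-3p fell from 239, 381 and 249.6 to 60.5, 53.3 and 109 CPM (log2FC -1.96, SE 0.43, edgeR Padj = 0.0015), and miR-205-5p from 37.4, 39.9 and 24.9 to 9.53, 6.16 and 18.8 (log2FC -1.57, Padj = 0.0038). The part that a different share of skin, blood or fibroblasts had in other changes was not tested.

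Levels at P14 also followed the base composition of the miRNAs. A line was fitted in each library to the deviation of 309 miRNAs of at least 10 CPM from their average over the series, against GC content. Its slope was 0.379, 0.563 and 0.381 in the P14 libraries (change in log2 level for every 10 points of GC), and 0.0765, -0.0051 and -0.0108 in the P5 libraries (exact permutation p = 0.1). P14 replicate 2 had the steepest slope. Of 48 miRNAs with a GC content under 35%, 33 fell and 3 rose (median log2FC -1.72), whereas of 203 at 55% and over 26 fell and 46 rose (median 0.28). Across 306 miRNAs of at least 10 CPM, Spearman's rho of log2FC and GC content was 0.40, a description over miRNAs that share the same 6 libraries.

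Removing a quadratic GC trend from each library left 263 of 688 miRNAs with a call, 145 up and 118 down. Of the 297 calls that could be retested, 231 were kept, and 8 of these had changed sign. MiRNAs without a RefSeq sequence could not be retested, among them miR-1a-3p, miR-133a-3p, the miR-486 entries, miR-378a-3p and miR-30d-5p. Named rises with the trend removed included miR-22-3p (1.62), let-7b-5p (1.67) and miR-29a-3p (1.58), and named falls miR-376a-3p (-3.21), miR-543-3p (-2.68) and miR-21a-5p (-0.68). Whether the trend arose in the tissue or in library preparation was not tested, and with no batch given in the labels it cannot be told apart from age.

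**Figure D5:**
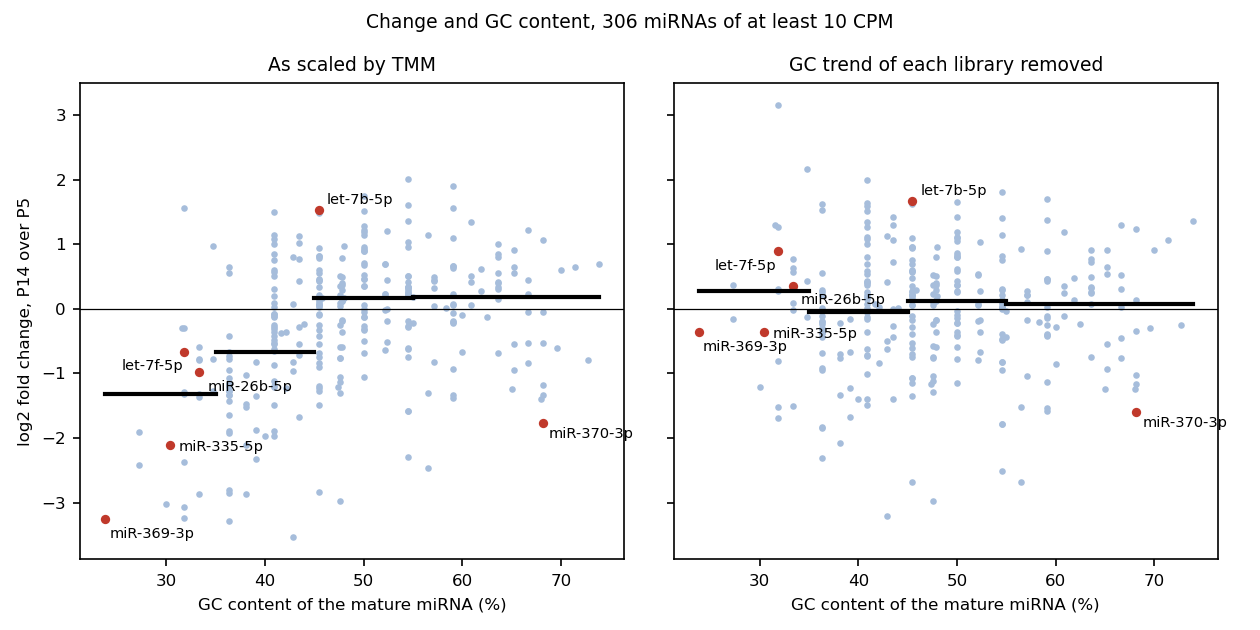
Log2 fold change, P14 over P5, against the GC content (%) of the mature miRNA for 306 miRNAs of at least 10 CPM, as scaled by TMM (left) and with the GC trend of each library removed (right), where black bars are medians of the GC classes under 35, 35 to 45, 45 to 55 and over 55%. On the left the median under 35% is -1.31, and let-7f-5p and miR-26b-5p change sign between the panels while miR-370-3p and let-7b-5p do not.

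The second week was then set against the first days with the difference of the 2 steps, P14-P5 minus P5-P1, in the same model. The 2 steps span unequal times and were not scaled to days, so a difference between them is not a difference in daily rate. Of 809 miRNAs, 146 (18.0%) had a step difference that passed the threshold, 38 upwards (4.70%) and 108 downwards (13.3%). This contrast was not retested with the GC trend removed. The GC slope was 0.0541, 0.0670 and 0.00907 in the P1 libraries, so the steeper P14 slopes given above enter the step difference. The P5 libraries enter both steps, and the count was 89 without P5 replicate 2 and 93 without P5 replicate 3. The miR-486a-5p log2FC was 0.19 for P5 versus P1 and 2.35 for P14 versus P5 (difference 2.16, SE 0.33, edgeR Padj = 0.00036). MiR-29a-3p had values of -0.36 and 1.09, and between P14 and P90 4.98.

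Downwards, miR-376a-3p had a log2FC of -0.23 in the first days and -3.54 in the second week, and miR-369-3p and miR-542-3p behaved alike (-0.14 and -3.25, -0.24 and -3.06). With the GC trend removed, the P14-P5 log2FC was -3.21 for miR-376a-3p, -0.36 for miR-369-3p and -1.52 for miR-542-3p. MiR-376a-3p dropped from 118, 168 and 159 CPM at P5 to between 9.66 and 14.7 at P14, far below the P5 libraries. By contrast, miR-154-3p had already a log2FC of -0.90 from P1 to P5 (edgeR Padj = 0.0022). Some miRNAs turned afterwards: miR-1a-3p had -0.80 in the second week and 3.68 from P14 to P90, miR-21a-5p -1.64 and 2.17, and let-7b-5p 1.53 and -1.17. MiR-206-3p, without a call in the second week, had -3.91 from P14 to P90. TMM factors were 0.247 to 0.384 at P90 against 1.41 to 1.73 at P14, so values for P90 versus P14 depend strongly on the scaling. These steps share libraries and are given side by side only.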

How the data were processed

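Small RNA was sequenced from mouse quadriceps at P5 and P14 (3 libraries each), with P1 and P90 libraries in the same model. The authors trimmed reads with cutadapt 1.18, aligned them to GRCm38 with Bowtie2 2.4.1 and counted them with featureCounts 2.0.1 on miRBase 22, and the deposited table holds raw counts per mature miRNA. Strand and multimapping options are not given in the sources used here. 

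Groups follow the sample titles. No replicate pair was closer than sampling noise (chi-square per degree of freedom from 212 at P5 and 215 at P14), so all were kept as separate samples. MiRNAs passing filterByExpr over the 4 ages (809) were tested with edgeR 4.0.16 in R 4.3.3, with TMM scaling, 1 quasi-likelihood model of all 12 libraries and 2-sided F-tests. P values were adjusted by Benjamini-Hochberg over all miRNAs tested. Log2 ratios of 5p to 3p counts (pseudocount 0.5) were tested with limma 3.58.1, seeds as sums of counts with edgeR, and library composition with exact permutation tests. The floor was 3 counts. Counting error is small at these depths, and intervals from it would not cover PCR or animal variation. Scripts were tested on simulated data.

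Named miRNAs were the 10 largest log2FC in each direction among called miRNAs with at least 100 CPM and no overlap, the 10 most abundant, up to 3 called members of each list with the highest level (the most abundant member if none was called), 5 hairpins per direction by arm ratio, 5 miRNAs per direction by step difference and 5 seeds per direction. A few further members are named to complete a family or a hairpin and were chosen after their values were seen. The members and lists were chosen with earlier results of these data known.

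Alternatives were RLE, upper-quartile and total scaling, DESeq2 1.42.0, other filters, the 2 ages alone, a replicate block, removal of a GC trend, removal of later-named miRNAs of overlapping hairpins and leaving out each library. For arm ratios all overlapping hairpins were left out, not only the later-named ones. Removal of the GC trend from arm ratios was added after seeing the data.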

Additional observations from a re-analysis of the deposited data

Results flagged for a closer look

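Changes in the second week that differed from those of the first days, by a test of the difference itself, were found for 146 miRNAs. The difference was not scaled to the days in each step and was not retested with the GC trend removed. The 5 with the highest positive difference at 100 CPM or more were miR-486a-5p (2.16 log2 units), miR-486b-3p (2.16), miR-486b-5p (2.12), miR-486a-3p (2.12) and miR-29a-3p (1.45). The 5 with the lowest were miR-376a-3p (-3.31), miR-369-3p (-3.11), miR-542-3p (-2.82), miR-203-3p (-2.79) and miR-203b-5p (-2.79). The miR-486 entries overlap one another, as do miR-203-3p and miR-203b-5p, so these 10 values stand for 6 loci. For miR-203-3p the P5-P1 log2FC was 0.83 (edgeR Padj = 0.35), the P14-P5 log2FC -1.96 and the P90-P14 log2FC 1.54. The P90-P14 value depends strongly on the scaling, since the TMM factors of the P90 and P14 libraries lay far apart.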

How the results depend on the processing

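The number of miRNAs that differed between P5 and P14 stayed within 1.5 times of 359 under all alternatives run (339 with no filter on low counts, 379 with DESeq2, 335 with the replicate block, 263 with the GC trend removed, 309 to 378 with a library left out) except the filter at 10 CPM, which tested 347 miRNAs and called 232. Same-numbered P5 and P14 libraries did not deviate together (correlations 0.025, -0.081 and 0.138, and not every library correlated best with its own number), so the samples share only a number. The replicate block lost 26 of the 359 calls and left no named miRNA with a changed sign except miR-182-5p. The step-difference count was 89 to 172 with a library left out, the lowest being 89 without P5 replicate 2, and it was not run with the GC trend removed. Arm-ratio calls were 70 to 104 with a library left out and 62 with the GC trend removed, where 201 hairpins could be tested. Seed calls were 207 to 261. Of 2454 values of 109 named miRNAs under alternatives, 2297 kept direction and side of the threshold, 122 lost it and 31 turned sign. With the GC trend removed, without and with the replicate block, the turned values were 0.90 and 0.90 for let-7f-5p, 0.57 and 0.58 for miR-142a-5p, 0.36 and 0.36 for miR-26b-5p and 0.30 and 0.29 for miR-451a. The other turned values belonged to miRNAs without a call. MiR-127-3p had -0.00030 with RLE, -0.00030 with DESeq2, -0.039 with no filter, -0.14 with the GC trend removed (with the block -0.135) and -0.029 to 0.14 with a library left out. MiR-206-3p had -0.039 with RLE and DESeq2, -0.076 with no filter and -0.036 to 0.14 with a library left out. MiR-143-3p had 0.26 with library totals, 0.27 with upper-quartile factors, 0.073 at 10 CPM, 0.014 with the 2 ages only, 0.0095 without later-named overlapping miRNAs and -0.070 to 0.12 with a library left out. MiR-182-5p had -0.036 with the replicate block, -0.043 with the block and the GC trend removed and -0.36 to 0.73 with a library left out, and miR-140-3p -0.58 to 0.95 with a library left out. Apart from the alternatives' own construction (fewer miRNAs or hairpins tested), the cause was not tested. Depth limits miRNAs of a few counts, where 13 called falls had at most 3 counts in every P14 library.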

Other observations

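The lists not described so far covered further developmental groups. Of 20 miRNAs of the miR-17 cluster and its paralogs, which promote proliferation, 2 rose, 8 fell and 10 did not pass (median -0.36). MiR-19a-3p (log2FC -2.75, Padj = 3.1e-06), miR-19b-3p (-1.88, Padj = 1.1e-06) and miR-18a-5p (-1.68, Padj = 7.8e-07) fell, whereas miR-92a-3p, encoded on the same transcript, rose from 1541, 1687 and 1565 to 2079.7, 2409 and 2021 CPM (log2FC 0.44, Padj = 0.0064) and gave 0.22 without a call when the GC trend was removed. In the miR-15 family, which slows the cell cycle, 4 rose, 4 fell and 3 did not pass of 11. The miR-195a-5p and miR-497a-5p pair rose (log2FC 0.80 and 0.90) while miR-322-5p and miR-15a-5p fell (-0.65 and -0.49), all with one seed. Both falls were lost after removal of the GC trend, at -0.16 for miR-322-5p (edgeR Padj = 0.48) and 0.0062 for miR-15a-5p (edgeR Padj = 0.99), and with them the split within the seed.

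In the miR-101, miR-148 and miR-152 list, known for repressing epigenetic regulators, 1 rose, 6 fell and 4 did not pass of 11 (median -1.11). MiR-148a-3p fell from 1737, 1513 and 1666 to 799, 594 and 886 CPM (log2FC -1.11, SE 0.20, edgeR Padj = 0.00033) and miR-152-3p with a log2FC of -1.13, while miR-101a-3p (-1.36) was at -0.01 with the GC trend removed. In the miR-99, miR-100 and miR-125 list 6 rose, 1 fell and 4 did not pass of 11 (median 0.53), led in level by miR-125b-5p, which rose from 3914, 3727 and 3959.5 to 6572, 7985 and 7370.3 CPM (log2FC 0.92, SE 0.14, edgeR Padj = 6.6e-05). In the Hox cluster list 2 rose, 2 fell and 6 did not pass of 10, with miR-10a-5p at 1.01 and miR-10b-5p at 0.78. In the miR-23, miR-27 and miR-24 list 5 rose, 0 fell and 9 did not pass of 14 (median 0.31), where miR-23b-3p (log2FC 0.91) and miR-23a-3p (0.50) rose.

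In the remaining lists the counts were as follows. In the miR-26 and miR-22 list 4 rose, 2 fell and 1 did not pass of 7, in the miR-181 family 2 rose, 3 fell and 5 did not pass of 10, and in the miR-500 to miR-188 cluster 1 rose, 3 fell and 6 did not pass of 10. For miR-221 and miR-222 2 rose, 0 fell and 2 did not pass of 4, and for the neural list 5 rose, 0 fell and 14 did not pass of 19, with miR-132-3p at 0.67. Of the satellite cell miRNAs miR-31 and miR-489 (2 tested), the miR-34 family (5), miR-182, miR-183 and miR-96 (4) and the cartilage miRNAs (2), 0 passed in the edgeR test, and 1 of them, miR-34c-5p, passed without adjustment for multiple tests. Of 6 liver and gut miRNAs miR-122-5p fell (log2FC -1.71, Padj = 0.043), where P5 replicate 1 was the highest (41.9, 13.4 and 11.2 CPM at P5, 6.39, 5.62 and 8.28 at P14). Without that library it was -0.87 and not called, and the call was also lost with library totals, upper-quartile factors, DESeq2, at 10 CPM and without any single P14 library or P90 replicate 3. Of the 2 miR-210 arms miR-210-3p fell (log2FC -0.68, Padj = 0.044), and its call was lost in 14 settings, at -0.42 without P5 replicate 1, -0.42 with library totals alone and -0.69 with the replicate block.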
